A study of Rattus norvegicus with 48 samples.

Results

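Muscle of young HCR rats and of young LCR rats was compared after a run to exhaustion. The comparison uses the 6 arrays labelled young, exhausted and HCR and the 6 labelled young, exhausted and LCR, chosen by these labels alone, which makes 12 of the 48 arrays of the study. The labels give only the abbreviations; HCR commonly stands for high-capacity runner rats and LCR for low-capacity runner rats. The tissue was extensor digitorum longus, a fast-twitch muscle at the front of the shin that extends the toes, and its RNA was hybridised to Affymetrix Rat Gene ST 2.1 arrays. The other 36 arrays hold old rats of both lines in both states and young rats of both lines at rest, with 6 arrays in each of the 8 groups formed by line, age and state.

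The young HCR exhausted group was set against the young LCR exhausted group. The young HCR rest and young LCR rest groups, and the old HCR exhausted and old LCR exhausted groups, are given beside them. No drug, diet or genetic change other than the line is named. Ages in months, sex, the speed, length and distance of the run, and the time from its end to tissue collection are not given in the labels used here. A line difference after the run therefore cannot be told apart from a difference in how long each line ran. Each title carries an animal number, and replicate numbers follow the order of deposit and only name an array. For replicate 6 of the young HCR rest group, 2 animal numbers stand in the title.

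HCR and LCR rats descend from 1 founder stock by selection on treadmill running distance, so that the lines differ in inherited capacity rather than in training. A bout of running switches on immediate early genes in muscle, which encode transcription factors and signalling proteins. Stress hormones, falling insulin and changing fuel use alter further genes in the following hours, through the glucocorticoid receptor, FoxO factors and PPAR receptors.

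Values are log2 expression levels as deposited, 9558 genes had enough signal to be tested, and differences are HCR minus LCR, so that 1 means a doubling. Over the genes tested, the correlation between arrays was 0.972 to 0.986 within exhausted HCR and 0.971 to 0.985 within exhausted LCR. Fast muscle markers were bright in all 12 arrays: Myh4, the myosin heavy chain of the fastest fibres, lay between 13.06 and 13.34. An array has no read depth, and the number of arrays limits the precision. A whole muscle sample holds several cell types, so fewer cells of a type and less RNA per cell cannot be told apart.

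A pair of the 12 arrays departed from the rest of their groups. In young HCR exhausted replicate 1, 199 genes lay more than 1 log2 unit from the median of the other 5 arrays of the group, and in young LCR exhausted replicate 1, 157 genes did, against 34 to 81 in the other 10 arrays. Most of the LCR array's departures were upward, with 130 genes above. That array held Myh3, the embryonic myosin heavy chain, at 10.84, where the other 5 LCR arrays lay between 5.38 and 6.60. Ankrd1, a stretch and injury response gene, stood at 11.49 against 5.76 to 7.08, and Postn, a matrix protein of tissue repair, at 9.16 against 5.89 to 6.30. Over all other arrays of the study the highest values were 7.05 for Myh3, 10.92 for Ankrd1 and 7.37 for Postn. These 3 genes were chosen after their values were seen. Both arrays stayed in the comparison, and counts without them are given where they matter.

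More genes differed upward than downward. By limma with Benjamini-Hochberg adjustment at 0.05, 363 genes were higher in exhausted HCR muscle (3.8% of those tested) and 122 were lower (1.28%), which makes 485 in all (5.07%). Of these, 130 were higher by at least 1.5-fold (1.36%) and 47 were lower by as much (0.492%). In 242 genes all 6 HCR arrays lay above all 6 LCR arrays (2.53%), and in 70 all lay below (0.732%), so that 312 genes had no overlap (3.26%). The median difference over all genes was 0.03. Without both departing arrays, 297 genes were higher and 92 lower, and 325 of the 485 genes were called again in the same direction.

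**Figure D1:**
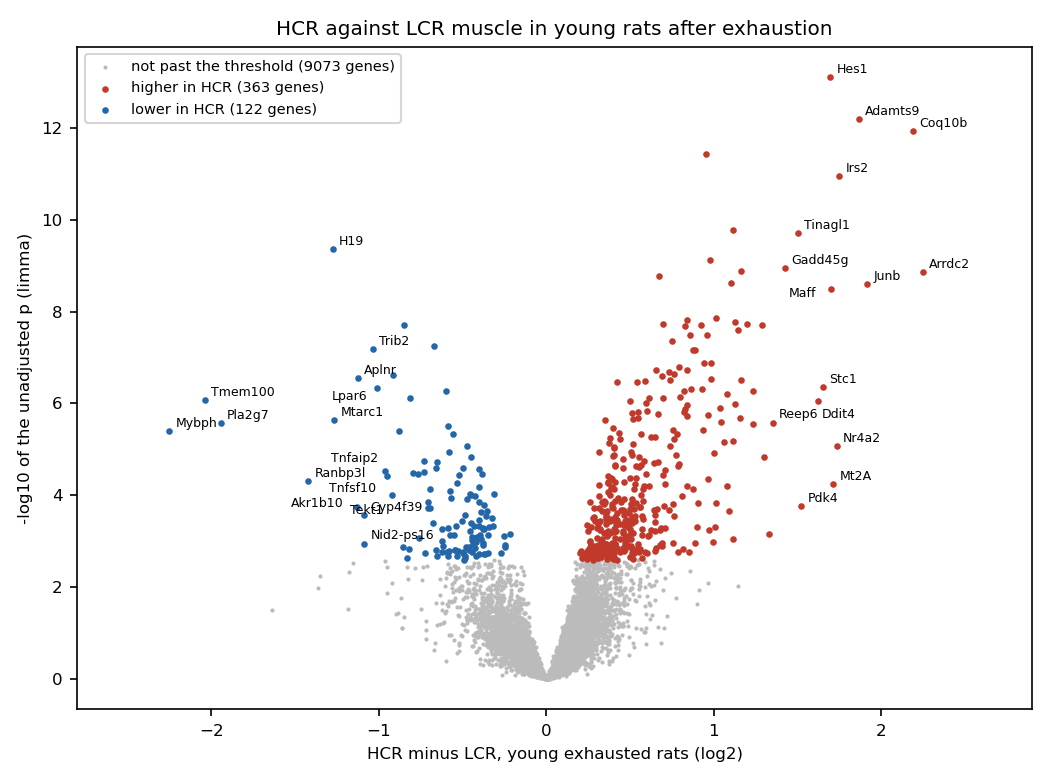
Each point is 1 of the 9558 genes tested, by its HCR minus LCR difference after exhaustion (x, log2) and the negative log10 of its unadjusted limma p (y). Red marks the 363 genes higher and blue the 122 genes lower in HCR after adjustment, and the named genes are the 15 furthest in each direction.

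At rest the lines differed in fewer genes. In young rested rats 110 genes were higher in HCR (1.15%) and 35 lower (0.366%), a count that fell to 45 in all without young LCR rest replicate 6. Of the 485 genes called after exhaustion, 421 had the same sign at rest (86.8%, against 63.7% of all genes tested), but their differences were smaller there. The genes higher in HCR had a median of 0.50 after exhaustion and 0.19 at rest, and the lower ones -0.51 and -0.17. All were chosen by passing the threshold after exhaustion, which by itself favours larger differences there than at rest. Those called in both states numbered 57, all in the same direction, which is 11.8% of the genes called after exhaustion and 39.3% of those called at rest.

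Old exhausted rats, which are other animals, gave 305 genes higher (3.19%) and 80 lower (0.837%), 385 in all (4.03%). There 466 of the 485 genes had the same sign (96.1%, against 65.5% of all genes), and 188 were also called, all in the same direction. These make up 38.8% of the calls in young rats and 48.8% of those in old rats. The medians in old rats were 0.33 for the genes higher here and -0.27 for the lower ones. Choosing the genes on the young exhausted arrays by itself favours smaller medians in old rats. A direct test of whether the line difference changed with age called 0 genes by limma after adjustment, and 472 genes at an unadjusted p below 0.05 (4.94%).

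Whether the line difference after exhaustion differed from that at rest was tested as an interaction, which shares the 12 exhausted arrays with the comparison above. It called 34 genes, 26 with a higher HCR minus LCR difference after the run (0.272%) and 8 with a lower one (0.0837%), of which 7 by at least 1.5-fold (0.0732%). At an unadjusted p below 0.05 it called 685 genes (7.17%). Coq10b, Hes1, Adamts9, Maff and Irs2 had the smallest p among the higher differences and Rnf125, Aplnr, Lpar6, Trib2 and Efna1 among the lower ones. The total rested partly on single arrays: it was 15 without young HCR exhausted replicate 2, 16 without young HCR rest replicate 6, 20 and 21 without young LCR exhausted replicates 5 and 3, 22 without young HCR exhausted replicate 5 and 51 without young HCR exhausted replicate 3.

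**Figure D2:**
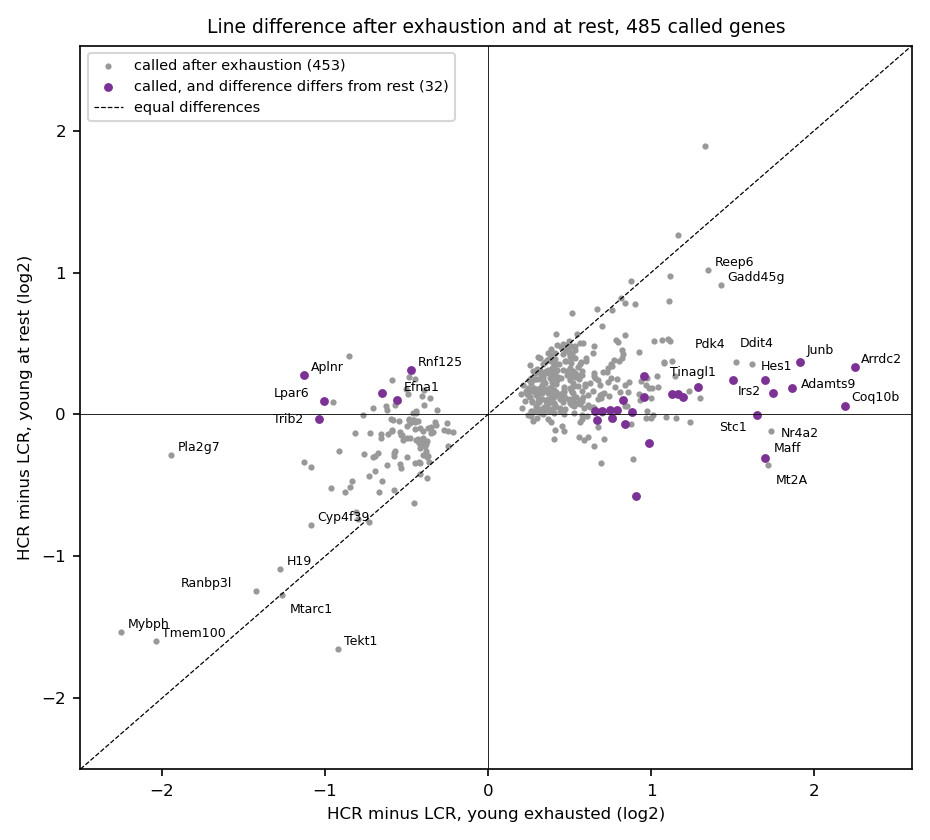
Each point is 1 of the 485 genes called between the lines after exhaustion, by its HCR minus LCR difference there (x, log2) and at rest (y, log2). Purple points also passed the interaction test, which uses the same exhausted arrays; many of the furthest genes on the right, such as Coq10b (2.19 after the run, 0.06 at rest), lie near the horizontal axis, while H19, Mtarc1 and Tmem100 lie near the dashed line of equal differences.

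The gene with the smallest adjusted p in the interaction was Coq10b, a coenzyme Q binding protein of mitochondria. It lay between 8.72 and 9.69 with a median of 8.94 in exhausted HCR, and between 6.72 and 6.98 with a median of 6.85 in exhausted LCR. The groups did not overlap, and at rest the medians were 5.93 and 6.04. The difference after the run was 2.19 ± 0.22 (log2, SE, n = 6 and 6; 4.57-fold, limma adjusted p = 3.7e-09), and it exceeded the difference at rest by 2.13 ± 0.31 (adjusted p = 0.000252).

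Arrdc2, an alpha-arrestin, had the largest difference in favour of HCR. It ran from 9.26 to 9.96 with a median of 9.78 in exhausted HCR and from 6.39 to 8.35 with a median of 7.50 in exhausted LCR. All HCR arrays were above all LCR arrays, and the LCR arrays spread more widely. The difference was 2.25 ± 0.29 (4.75-fold, limma adjusted p = 1.1e-06). Arrdc3, of the same family, was higher by 1.20 after the run and differed by 0.13 at rest.

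Many immediate early genes were higher in HCR. Of 23 members tested, from 28 listed, 10 were higher and none lower, against 3.8% of all genes, with a median difference of 0.53. At rest none of the 23 was called and the median was 0.09. The direct test of the line difference against that at rest called only 2 of the 23, both with a higher difference (0.272% of all genes). In old exhausted rats 10 were higher (3.19% of all genes). The count stayed at 10 without young HCR exhausted replicate 1, without young LCR exhausted replicate 1 and without both. This list, like the others, was chosen with earlier results of these data known.

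Junb, a subunit of the AP-1 transcription factor, had values of 7.51 to 8.45 around a median of 8.07 in exhausted HCR. In exhausted LCR they were 5.12 to 6.70 around 6.13. Every HCR array exceeded every LCR array, by a mean of 1.91 ± 0.26 (3.77-fold, limma adjusted p = 1.58e-06). Junb stood at medians of 4.78 in HCR and 4.43 in LCR at rest, below both exhausted medians. Nr4a2, an orphan nuclear receptor, ran from 10.16 to 11.37 (median 10.65) in HCR and from 8.26 to 9.43 (median 9.14) in LCR after the run, with rest medians of 6.79 and 7.04. Its groups did not overlap either, and the difference was 1.73 ± 0.34 (adjusted p = 0.00075).

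Maff, a small Maf factor that pairs with other leucine zipper proteins, lay at 6.28 to 7.75 (median 7.06) in exhausted HCR and at 4.83 to 5.68 (median 5.39) in exhausted LCR. The rest medians were 4.62 and 5.0, with a line difference of -0.31 that did not pass the threshold. The difference of 1.70 ± 0.23 exceeded that at rest by 2.01 ± 0.33 (adjusted p = 0.000469 in the interaction). Sik1, a kinase that restrains CREB coactivators, was at 9.45 to 10.12 in HCR and 8.17 to 8.75 in LCR. It was higher in every HCR array, by 1.30 ± 0.27 (adjusted p = 0.00119).

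The other 6 early genes past the threshold are named to complete the list. They were Zfp36, an mRNA-destabilising protein (1.06), Csrnp1 (1.0), the Krüppel-like factors Klf10 (0.97) and Klf4 (0.81), Myc (0.74) and Nr4a1 (0.65). All but Myc were also called in old exhausted rats. The remaining 13 members did not pass the threshold, and 6 of them had a positive difference.

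Hes1, a repressor that Notch signalling switches on, had the smallest p of all genes in the comparison. It lay at 8.45 to 9.06 (median 8.86) in exhausted HCR and at 6.79 to 7.61 (median 7.12) in exhausted LCR, against rest medians of 6.58 and 6.29. The exhausted groups were clear of each other, and the difference was 1.70 ± 0.16 (limma adjusted p = 7.53e-10).

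**Figure D3:**
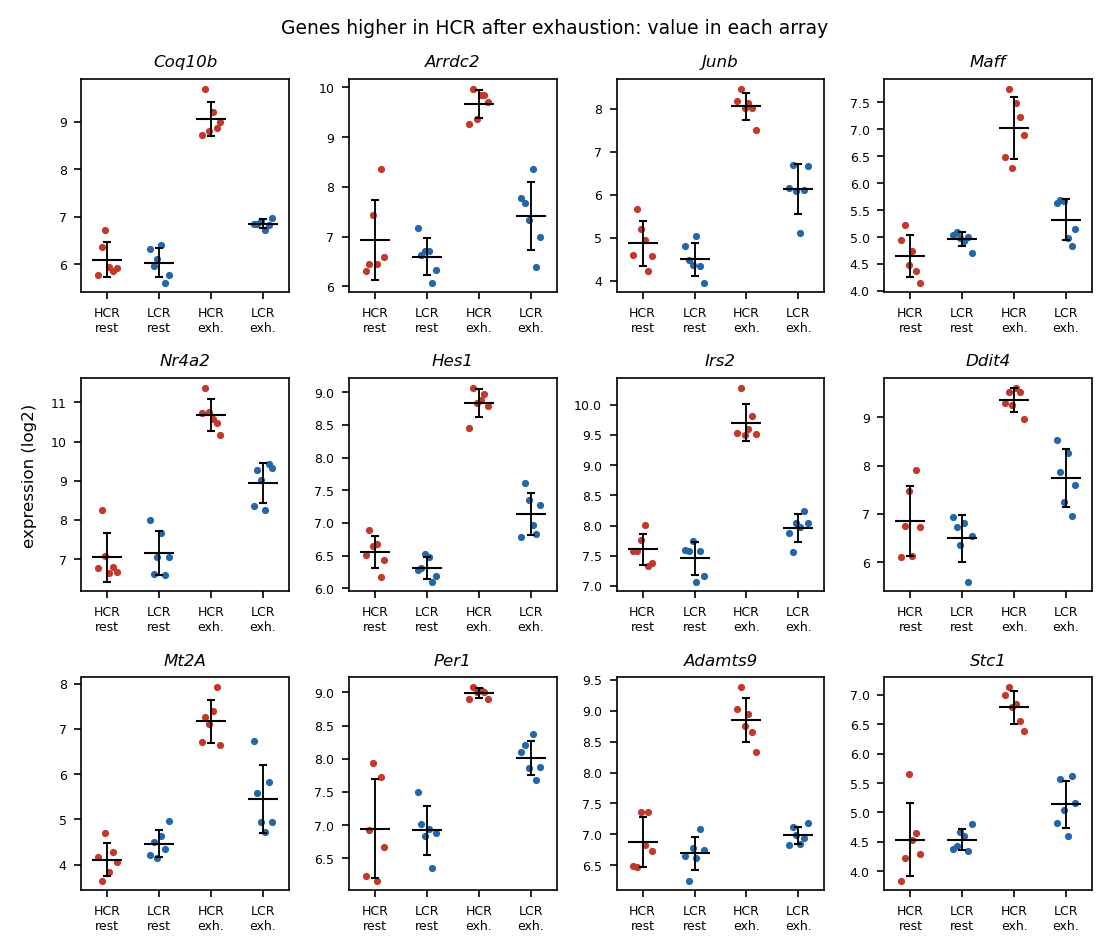
Log2 expression of 12 genes higher in HCR, 1 point per young array, with the mean and SD of each group of 6 as bars, for HCR (red) and LCR (blue) at rest and exhausted (exh.). In all but Mt2A every exhausted HCR point lies above every exhausted LCR point, and in most panels the rest groups lie together.

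Genes known as targets of the glucocorticoid receptor or of FoxO factors differed most often among the 24 pathway lists. Of 14 tested, from 20 listed, 11 were higher in HCR and none lower (3.8% of all genes were higher), with a median of 0.96 and all 14 differences positive. At rest 2 were called, Fkbp5 and Gadd45g (1.15% of all genes were higher), and the median was 0.10. The direct test against rest called 3 of the 14, all with a higher difference (0.272% of all genes). In old exhausted rats 9 were higher (3.19% of all genes) with a median of 0.77. The count after exhaustion was 11 with or without either departing array. Across the list the mean level was 8.94 to 9.33 in exhausted HCR and 7.94 to 8.49 in exhausted LCR. All lists were chosen with earlier results of these data known, so their ranking carries no test.

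Irs2, an adaptor that passes on the insulin signal, lay at 9.49 to 10.27 (median 9.56) in HCR and 7.56 to 8.24 (median 8.01) in LCR after the run. The median at rest was 7.58 in both lines. The exhausted groups did not overlap, and the LCR median was nearer to rest than the HCR median. The difference was 1.75 ± 0.19 (3.36-fold, limma adjusted p = 2.16e-08).

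Ddit4, an inhibitor of the growth kinase complex mTORC1, ran from 8.95 to 9.60 (median 9.41) in HCR and from 6.95 to 8.53 (median 7.73) in LCR. The groups were separate, with a difference of 1.62 ± 0.28 (adjusted p = 0.000135). Mt2A, a metallothionein that binds zinc and copper, lay at 6.64 to 7.92 (median 7.19) in HCR and 4.72 to 6.73 (median 5.26) in LCR. Here the groups overlapped, and the difference was 1.71 ± 0.39 (adjusted p = 0.00342). Mt2A was the only one of 6 metallothionein and zinc transport genes tested to pass the threshold (3.8% of all genes were higher).

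Gadd45g, a growth arrest and stress protein, was at 8.64 to 9.01 in exhausted HCR and 7.01 to 7.97 in exhausted LCR, apart by 1.43 ± 0.19 (adjusted p = 1.06e-06). It differed at rest too, by 0.91 (adjusted p = 0.00477). Fkbp5, a cochaperone that binds the glucocorticoid receptor, was likewise higher in both states, by 1.11 after the run and 0.98 at rest. Errfi1, an inhibitor of the EGF receptor, was higher by 1.04, the metabolic regulator Klf15 by 0.95, Foxo1 by 0.47 and Foxo3 by 0.34. Fkbp5, Errfi1, Klf15, Foxo1 and Foxo3 are named to complete the list, whose other calls, Trim63 and Per1, are described below. Klf9, Zbtb16 and Fbxo32 were tested and did not pass the threshold.

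Trim63 encodes MuRF1, a ubiquitin ligase that tags muscle proteins for breakdown. It lay at 10.60 to 11.12 (median 10.82) in exhausted HCR and 10.02 to 10.55 (median 10.13) in exhausted LCR, without overlap, and at rest medians of 9.98 and 10.06. The difference was 0.67 ± 0.12 after the run (adjusted p = 0.000223) and exceeded that at rest by 0.71 ± 0.17 (adjusted p = 0.0466). Of 18 ubiquitin and autophagy genes tested, 3 were higher and 1 lower (3.8% and 1.28% of all genes), among them Trim63. The other calls were smaller: Map1lc3a was higher by 0.49, Fbxo21 higher by 0.35 and Atg12 lower with -0.39. The Map1lc3a call was lost without young LCR exhausted replicate 1, and the Fbxo21 call without any of 9 arrays. Fbxo32, which like Trim63 stands in both this list and the glucocorticoid and FoxO list, was not called.

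Promoter sequence is shown for 5 genes higher in HCR whose window holds a match to at least 1 of 5 motifs searched. The motifs are those of the glucocorticoid receptor, FoxO factors, metal-responsive and heat shock factors, and the cyclic AMP responsive factor CREB. The 5 genes were picked by hand, and other genes higher in HCR also hold matches, such as Hspe1 for the heat shock element. The 250 bases before each gene's start were searched on both strands in RefSeq promoters of the GRCr8 build. Capitals mark the matches. For Trim63 (chr5:151816997-151817057, plus strand) these are a glucocorticoid response element, searched as GAACA and TGT with any 3 bases between, which matches in both orientations, and, after 1 base, a FoxO element, letters TGTTTAC. For Mt2A (chr19:10838737-10838948, minus strand) they are 4 metal response elements, letters TGCACNC or TGCGCNC. For Hsph1 (chr12:10427312-10427364, plus strand) it is a heat shock element, searched as GAA, TTC and GAA, or TTC, GAA and TTC, each with any 2 bases between. For Maff (chr7:112792716-112792763, plus strand) and Ppp1r15a (chr1:105139635-105139682, minus strand) it is a cyclic AMP response element, letters TGACGTCA.
Trim63: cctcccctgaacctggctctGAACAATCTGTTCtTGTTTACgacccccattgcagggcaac
Mt2A: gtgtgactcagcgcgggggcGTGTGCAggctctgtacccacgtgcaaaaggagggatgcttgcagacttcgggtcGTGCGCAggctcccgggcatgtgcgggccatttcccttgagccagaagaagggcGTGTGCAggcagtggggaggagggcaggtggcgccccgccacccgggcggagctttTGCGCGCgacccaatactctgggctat
Hsph1: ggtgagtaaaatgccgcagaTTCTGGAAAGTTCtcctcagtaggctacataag
Maff: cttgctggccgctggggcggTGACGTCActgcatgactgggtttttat
Ppp1r15a: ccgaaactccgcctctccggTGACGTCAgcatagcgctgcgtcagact
Of the 363 genes higher in HCR, 288 had a promoter in the table. The glucocorticoid response element was in 1.39% of the 288 and in 0.786% of all 33469 promoters of this length. The FoxO element was in 3.12% and 3.21%, the metal response element in 33.3% and 20.6%, the heat shock element in 1.39% and 0.663%, and the cyclic AMP response element in 3.12% and 1.59%. Among the listed genes called higher, Trim63 was the only one of 9 glucocorticoid and FoxO targets with its motifs, Maff the only one of 7 early genes, and Hsph1 and Hspe1 were 2 of 7 chaperones. The 33469 promoters include those of genes not tested, whereas the 288 belong to genes with enough signal to be tested. Being higher in HCR is therefore not separated from being expressed in these shares. A match is a stretch of letters, not a measured binding site, and these shares carry no test.

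Chaperones were higher in part. Of 18 heat shock proteins and chaperones tested, 8 were higher and none lower (3.8% of all genes), with a median of 0.22 and 0.07 at rest, where none was called. Without either departing array, or without both, 6 were higher. In old exhausted rats 3 were higher (3.19% of all genes). The direct test against rest in young rats called none of the 18.

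Dnaja1, a cochaperone of the HSP70 family, lay at 10.31 to 10.87 (median 10.62) in exhausted HCR and 9.32 to 9.52 (median 9.48) in exhausted LCR. The groups were separate, and the rest medians were 9.41 and 9.21. The difference was 1.15 ± 0.17 (2.21-fold, limma adjusted p = 9.52e-06). Hsph1, a nucleotide exchange factor of HSP70, lay at 9.04 to 9.76 in HCR and 8.15 to 8.53 in LCR, also separate, with a difference of 0.98 ± 0.12 (adjusted p = 7.98e-07).

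The inducible Hspa1b overlapped between the lines, at 5.74 to 7.85 in HCR and 5.36 to 5.77 in LCR. It was higher by 1.08 ± 0.24 (adjusted p = 0.00358), whereas in old exhausted rats the difference was 0.13 ± 0.24 and did not pass the threshold; the change of the line difference with age did not pass either. Dnajb1, the partner of HSP70 in refolding, was higher by 1.0, but this call was lost without any of 5 arrays. The other 4 chaperones called, named to complete the list, were Bag3 (0.41), Hspe1 (0.37), Chordc1 (0.30) and the mitochondrial HSP70 Hspa9 (0.21).

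Of 13 genes of the unfolded protein and amino acid stress response, 4 were higher (3.8% of all genes) and none lower, with a median of 0.25. Ppp1r15a, which restarts translation after stress by directing dephosphorylation of eIF2alpha, was at 7.92 to 8.49 (median 8.15) in HCR and 7.18 to 7.44 (median 7.30) in LCR. Its groups did not overlap, and the rest medians were 6.87 and 6.91. The difference was 0.89 ± 0.14 (adjusted p = 2.02e-05) and passed the interaction test. Chac1, which degrades glutathione, was higher by 1.0 (lost without young LCR exhausted replicate 2), Herpud1 of endoplasmic reticulum degradation by 0.39 and the amino acid transporter subunit Slc3a2 by 0.31 (lost without any of 7 arrays).

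Of 11 clock genes, 2 were higher and 1 lower (3.8% and 1.28% of all genes). The period genes Per1 and Per2, repressors of the clock that also respond to glucocorticoids and cyclic AMP, were higher. Per1 lay at 8.90 to 9.08 (median 9.01) in exhausted HCR and 7.69 to 8.37 (median 7.99) in exhausted LCR, and Per2 at 6.82 to 7.33 and 5.70 to 6.56. Neither gene overlapped between the lines. The differences were 0.97 ± 0.26 for Per1 (adjusted p = 0.0184) and 1.01 ± 0.24 for Per2 (adjusted p = 0.00686). At rest Per1 differed by 0.02, but the 6 HCR arrays spread from 6.16 to 7.94. Npas2, an activator of the clock, was lower with -0.53, and that call was lost without any of 9 arrays. The hour of tissue collection is not given in the labels used here, so its part in these differences was not tested.

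Inflammatory signalling had 4 of 15 members higher (3.8% of all genes) and none lower. Its median of 0.04, with 8 of 15 positive, lay beside the 0.03 of all genes. The interleukin 6 receptor gene Il6r lay at 7.47 to 8.03 (median 7.75) in HCR and 6.54 to 7.19 (median 6.78) in LCR, without overlap, and differed by 0.96 ± 0.14 (limma adjusted p = 1.13e-05). Nfkbia, the inhibitor of NF-kappaB, was at 8.86 to 9.36 and 8.01 to 8.64, and Cebpb, a leucine zipper factor, at 7.60 to 8.23 and 6.86 to 7.46. Both were separate between the lines, with differences of 0.83 ± 0.15 and 0.78 ± 0.15. Ptgs2, the inducible cyclooxygenase, was higher by 0.88 ± 0.20 with overlapping groups. None of 12 interferon response genes and none of 15 antigen presentation genes passed the threshold. Their medians were -0.24 and -0.07, and the class II gene RT1-Db1 came nearest with -0.95 ± 0.31 (adjusted p = 0.061).

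Among the lists of fuel metabolism, fatty acid oxidation differed after the run and at rest. Of its 20 genes, 8 were called higher after exhaustion (3.8% of all genes) and 5 at rest (1.15% of all genes), and none lower. All 20 had positive differences in both states, with medians of 0.29 and 0.32, where 5460 of all 9558 genes were positive after exhaustion and 5848 at rest. The 10 slow fibre markers had medians of 0.37 and 0.53, with 8 and 10 positive differences, none past the threshold, and their part in the fatty acid oxidation difference was not tested. The direct test against rest called none of them. The count of 8 depended on young LCR exhausted replicate 1, without which 3 were called, with a median of 0.26. It was 4 without both departing arrays.

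Acaa2, the thiolase of mitochondrial beta-oxidation, lay at 10.15 to 10.47 (median 10.40) in exhausted HCR and 9.40 to 9.98 (median 9.65) in exhausted LCR, with rest medians of 10.38 and 9.63. The exhausted groups were separate, and the levels in each line were alike in both states. The difference was 0.70 ± 0.12 after the run (limma adjusted p = 0.00012) and 0.62 ± 0.12 at rest. Eci2, an enoyl-CoA isomerase, was higher by 0.51 after the run and 0.71 at rest, but the first call was lost without any of 8 arrays. Acads, the short-chain acyl-CoA dehydrogenase, was higher by 0.48, and Etfb, which carries its electrons onward, by 0.36. Etfa (0.29), Acsl1 (0.35), Acat1 (0.24) and Cpt1b complete the list's calls. The Acads call was lost without young LCR exhausted replicate 1 and the Etfb call without any of 5 arrays.

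Pdk4, a kinase that shuts down pyruvate dehydrogenase in fasting and exercise, was the gene of the PPAR and fasting list that differed most. It ran from 10.94 to 12.41 (median 11.89) in HCR and from 9.48 to 11.66 (median 10.24) in LCR. The groups overlapped, and the difference was 1.52 ± 0.37 (2.87-fold, adjusted p = 0.00788). Of the 19 members, 4 were higher (3.8% of all genes) and none lower, with medians of 0.39 after the run and 0.32 at rest. Acot2, a mitochondrial acyl-CoA thioesterase, was higher in every HCR array (0.84 ± 0.14), as was the mitochondrial carrier Slc25a34 (0.79 ± 0.17). Cpt1b, which admits fatty acids to muscle mitochondria, was higher by 0.26 and lost its call without any of 6 arrays.

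Oxidative phosphorylation subunits showed small differences. Of 50 tested, 3 were higher after the run and none lower, a share near the 3.8% of all genes. The median was 0.14 after the run, with 47 positive, and 0.17 at rest, with 50 positive, against 0.03 and 0.04 over all genes. The 3 called were the complex I subunits Ndufb8 (0.39 ± 0.09), Ndufs7 (0.29 ± 0.07) and Ndufa5 (0.23 ± 0.07, lost without any of 8 arrays). All 14 citric acid cycle genes were positive with a median of 0.14, and none was called. The 16 glycolysis and glycogen genes tested had a median of 0.03, equal to that of all genes. Of these, 1 was higher (3.8% of all genes) and none lower. It was Pfkfb1, which sets fructose 2,6-bisphosphate, higher by 0.50 ± 0.12.

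Branched-chain amino acid catabolism had 6 of 17 members higher after the run (3.8% of all genes) and 3 at rest (1.15% of all genes), none lower, with medians of 0.22 and 0.20. The count after the run was 3 without young LCR exhausted replicate 1. Acadsb, the short and branched-chain acyl-CoA dehydrogenase, lay at 10.03 to 10.48 in exhausted HCR and 9.11 to 9.47 in exhausted LCR. The groups were separate, with differences of 0.88 ± 0.14 after the run, 0.94 at rest and 0.85 in old exhausted rats. Ivd, of leucine breakdown, was higher by 0.40, the phosphatase Ppm1k, which activates the branched-chain ketoacid dehydrogenase, by 0.48, and Bckdhb, a subunit of that enzyme, by 0.38. Mccc2 (0.38) and Aldh6a1 (0.26) complete the list's calls. The Ppm1k and Bckdhb calls were lost without young LCR exhausted replicate 1, where Bckdhb stood at 8.67 against 9.23 to 9.51 in the other LCR arrays.

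Fat storage genes did not differ in 1 direction. Pnpla2, the first lipase of triglyceride breakdown, was at 10.33 to 10.65 (median 10.55) in exhausted HCR and 9.74 to 10.18 (median 9.94) in exhausted LCR. It was separate between the lines, by 0.54 ± 0.09 after the run (adjusted p = 6.84e-05) and 0.56 at rest (adjusted p = 0.000263). Dgat2, of triglyceride synthesis, was higher by 0.93 ± 0.16 with overlapping groups. Elovl6, a fatty acid elongase, was lower with -0.49, and lost its call without any of 10 arrays. The median over the 11 genes of lipid synthesis and storage was -0.16, with 2 higher and 1 lower (3.8% and 1.28% of all genes). Outside the lists, Reep6, which encodes a membrane-shaping protein of the endoplasmic reticulum, also differed in both states. It lay at 9.15 to 10.75 (median 10.05) in exhausted HCR and 7.78 to 9.25 (median 8.79) in exhausted LCR, with overlap, and differed by 1.35 ± 0.25 after the run (adjusted p = 0.000302) and 1.01 at rest (adjusted p = 0.0256).

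**Figure D4:**
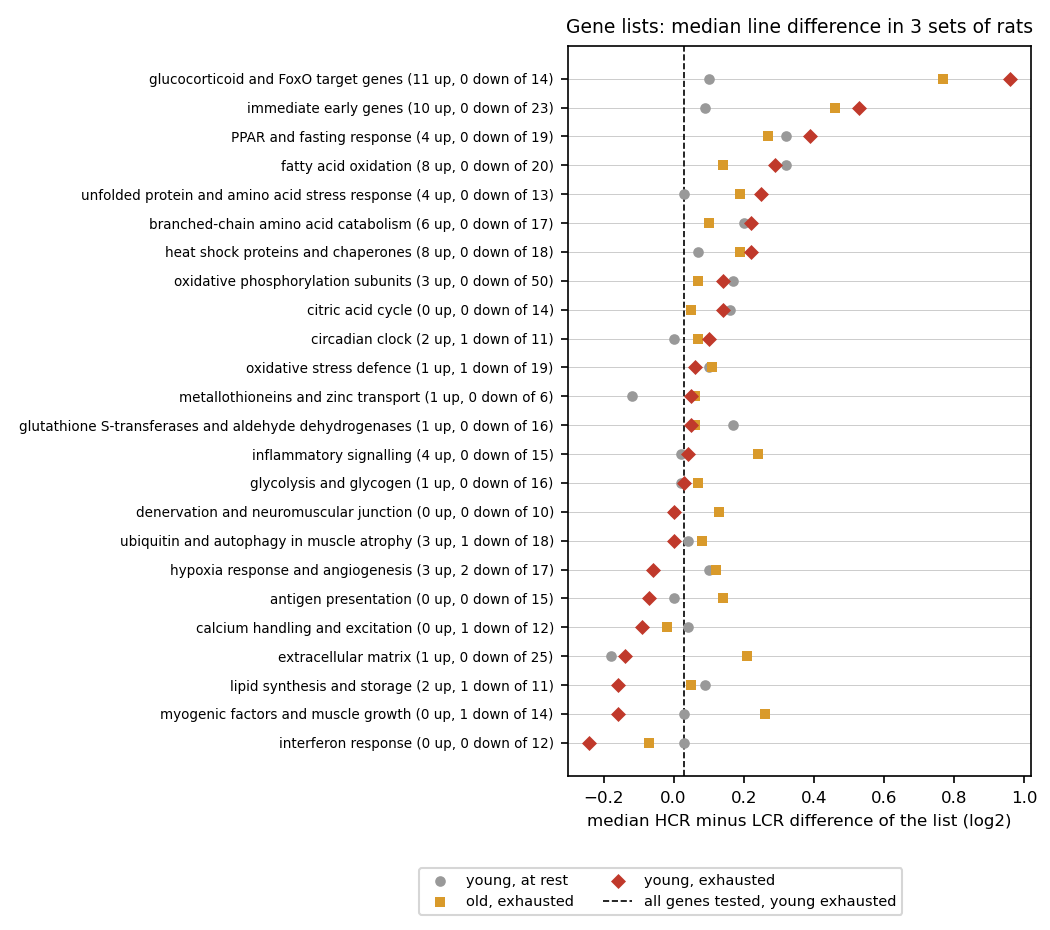
Median HCR minus LCR difference (x, log2) of the tested genes of each of 24 pathway lists, in young exhausted (red), young rested (grey) and old exhausted rats (orange), with the median of all genes in young exhausted rats as a dashed line at 0.03. The numbers give the genes called higher and lower after exhaustion in young rats; the glucocorticoid and FoxO list stands furthest right, at 0.96 against 0.10 at rest, while fatty acid oxidation lies at 0.29 and 0.32.

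Genes of vessels moved in both directions. Of 17 genes of hypoxia response and angiogenesis, 3 were higher and 2 lower (3.8% and 1.28% of all genes), with a median of -0.06. They were Adamts9, Ddit4 and Flt1, and Aplnr and Tek. Adamts9, a secreted metalloprotease that cleaves proteoglycans, lay at 8.33 to 9.38 (median 8.85) in exhausted HCR and 6.83 to 7.19 (median 6.96) in exhausted LCR. The exhausted LCR median lay near the LCR rest median of 6.70, while the exhausted HCR median lay above the HCR rest median of 6.79. The difference was 1.87 ± 0.19 (3.64-fold, limma adjusted p = 3.1e-09) and exceeded that at rest by 1.68 (adjusted p = 0.000294).

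The apelin receptor gene Aplnr went the other way. It lay at 4.95 to 5.6 (median 5.37) in exhausted HCR and 5.97 to 6.62 (median 6.54) in exhausted LCR, against rest medians of 7.16 and 6.90. Both exhausted medians lay below the rest medians, and the exhausted groups did not overlap. The difference was -1.13 ± 0.19 (2.18-fold lower in HCR, adjusted p = 6.19e-05), against 0.27 at rest.

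Of 9 endothelial markers, 3 were higher and 2 lower (3.8% and 1.28% of all genes), and their mean level was 7.53 to 7.80 in HCR and 7.28 to 7.52 in LCR. Cldn5, a tight junction protein, was at 7.03 to 7.74 and 5.83 to 6.58, and the adhesion protein Esam at 7.57 to 8.12 and 6.99 to 7.34. Both were separate between the lines, with differences of 1.13 ± 0.20 and 0.74 ± 0.15, and neither passed at rest. Flt1, a VEGF receptor, was higher by 0.42 ± 0.11, whereas the von Willebrand factor gene Vwf was lower with -0.54 ± 0.14 and lost its call without young HCR exhausted replicate 1 or young LCR exhausted replicate 6. Tek, the angiopoietin receptor gene, which completes the list's calls, was lower with -0.40.

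Several secreted or matrix proteins were among the genes furthest higher. Stc1, the hormone stanniocalcin 1, lay at 6.38 to 7.13 (median 6.82) in HCR and 4.60 to 5.62 (median 5.10) in LCR after the run, and at rest medians of 4.41 and 4.51. It was separate between the exhausted groups, with a difference of 1.65 ± 0.28 (3.14-fold, limma adjusted p = 8.34e-05). Tinagl1, a matrix-associated protein, lay at 8.76 to 9.48 and 7.27 to 7.96, also separate, with 1.5 ± 0.18 (adjusted p = 2.66e-07). Both passed the interaction test. Timp3, an inhibitor of metalloproteases, was the only one of 25 extracellular matrix genes called, higher by 0.53 ± 0.12. This share is near the 3.8% of all genes that were higher. The list's median was -0.14. Without young LCR exhausted replicate 1 it was -0.05; that array's mean level over the list was 8.86, against 8.0 to 8.49 in the other 5 LCR arrays. Sdc4, a proteoglycan carried by satellite cells, was higher by 0.86 ± 0.13. It was the only one of 6 satellite cell markers called (3.8% of all genes were higher).

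Among genes lower in HCR, 1 set was lower at rest as well. H19, an imprinted long noncoding RNA, lay at 10.62 to 11.04 (median 10.89) in exhausted HCR and 11.65 to 12.59 (median 12.10) in exhausted LCR, with rest medians of 11.02 and 12.17. The exhausted groups were separate, and in each line the exhausted median lay near that of the rested rats, which are other animals. The difference was -1.27 ± 0.16 (2.42-fold lower in HCR, limma adjusted p = 5.16e-07), against -1.09 at rest and -1.28 in old exhausted rats.

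Mtarc1, a mitochondrial enzyme that reduces N-hydroxylated compounds, was at 4.50 to 5.39 in HCR and 5.87 to 6.47 in LCR after the run. The groups were separate, and the difference was -1.27 in both states and -1.08 in old exhausted rats. Tmem100, a membrane protein of BMP-responsive vessels, was at 6.48 to 7.54 (median 6.96) in HCR and 8.44 to 9.68 (median 8.95) in LCR, with -2.04 ± 0.36 after the run (adjusted p = 0.000133) and -1.60 at rest. In old exhausted rats it differed by -0.47 and did not pass the threshold, but the change of its line difference with age did not pass either. Ranbp3l, a nuclear export factor, showed -1.42 after the run, -1.24 at rest and -1.28 in old exhausted rats, all past the threshold. Tekt1, a structural protein of cilia and flagella, was dim, above the filter level of 4.54 in 15 of 48 arrays, and lower by -0.92 after the run and -1.65 at rest with overlapping groups.

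Mybph, a myosin binding protein of the thick filament, was the gene furthest lower. It ran from 6.40 to 8.39 (median 7.35) in exhausted HCR and from 9.16 to 10.40 (median 9.48) in exhausted LCR. The groups were separate, by -2.25 ± 0.43 (4.76-fold lower in HCR, limma adjusted p = 0.000428). At rest the difference was -1.53 (adjusted p = 0.0511), and in old exhausted rats -0.82 (adjusted p = 0.346). The change of its line difference with age did not pass the threshold.

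**Figure D5:**
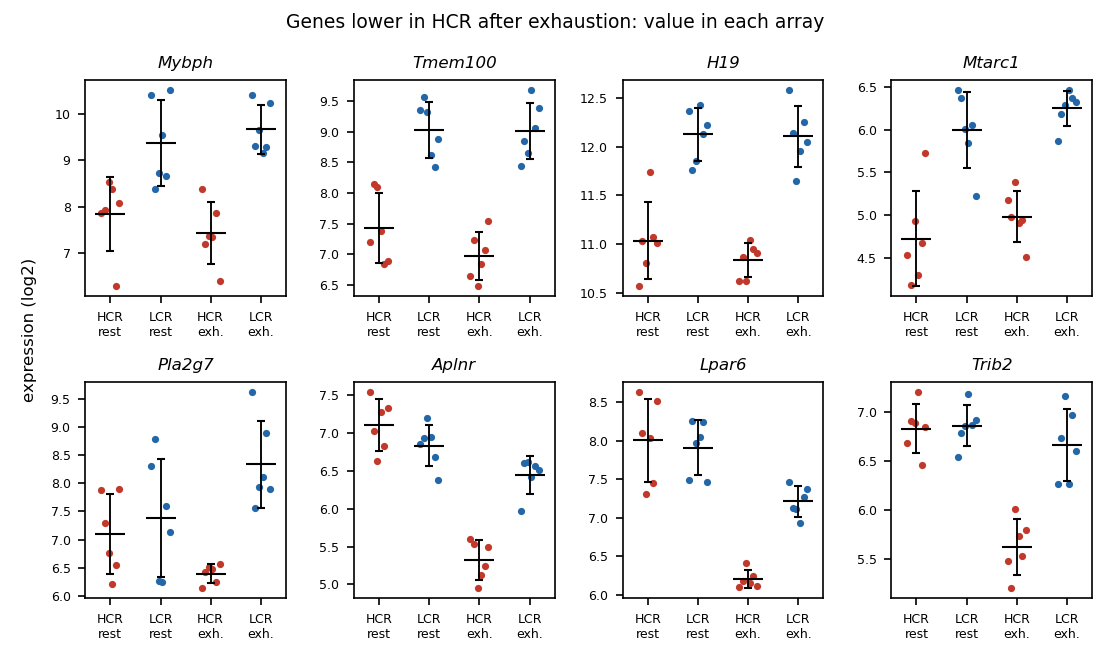
Log2 expression of 8 genes lower in HCR after exhaustion, drawn as in the panels of higher genes. In the upper row the group means of the lines differ at rest as well as after the run, whereas Aplnr, Lpar6 and Trib2 lie together at rest and apart after it.

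Another set was lower mainly after the run. Lpar6, a lysophosphatidic acid receptor, was at 6.11 to 6.42 (median 6.17) in HCR and 6.93 to 7.47 (median 7.19) in LCR, against rest medians of 8.07 and 8.01. Trib2, a pseudokinase that promotes protein degradation, was at 5.21 to 6.01 (median 5.63) and 6.26 to 7.16 (median 6.66), with a rest median of 6.86 in both lines. Neither gene overlapped after the run. The differences were -1.01 ± 0.17 and -1.04 ± 0.16, and both passed the interaction test, as did the ubiquitin ligase gene Rnf125 (-0.47 after the run, 0.31 at rest) and Efna1, an ephrin ligand (-0.56 and 0.10).

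Pla2g7, which hydrolyses platelet-activating factor, was at 6.13 to 6.57 (median 6.45) in HCR and 7.57 to 9.62 (median 8.02) in LCR. The groups were separate, with the wider spread in LCR, and differed by -1.94 ± 0.36 (limma adjusted p = 0.00031). Its interaction did not pass the threshold. Tnfsf10, a death ligand, was lower with -0.95 and Tnfaip2, a gene induced by tumour necrosis factor, with -0.96, both without overlap. Akr1b10, an aldo-keto reductase, was lower with -1.13 ± 0.28 in overlapping groups. Cyp4f39, a cytochrome P450, was lower with -1.09 and lost its call without young LCR exhausted replicate 6. The pseudogene Nid2-ps16 was dim, above the filter level in 12 arrays, and its -1.09 lost the call without any of 5 arrays.

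None of 6 fast fibre markers and none of 10 slow fibre markers passed the threshold, with medians of -0.09 and 0.37 after the run. Myh4 was at 13.06 to 13.21 in HCR and 13.21 to 13.34 in LCR (-0.15 ± 0.05, adjusted p = 0.0616), and Myl3, a slow myosin light chain, differed by 0.50 ± 0.47. The slow fibre median was 0.53 at rest. Kcnj2, the inward rectifier potassium channel, was the only one of 12 calcium handling and excitation genes called (1.28% of all genes were lower). It lay at 8.12 to 8.42 in HCR and 8.43 to 9.07 in LCR, without overlap (-0.48 ± 0.11). Myod1, a myogenic transcription factor, was lower with -0.66 ± 0.20, and lost its call without any of 8 arrays. Of the 14 myogenic and muscle growth genes tested, 1 was lower (1.28% of all genes) and none higher. Without young LCR exhausted replicate 1 the median of the 14 myogenic and muscle growth genes moved from -0.16 to -0.01. None of 10 denervation and neuromuscular junction genes passed.

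Of 19 oxidative stress defence genes tested, 1 was higher and 1 lower (3.8% and 1.28% of all genes), with a median of 0.06. The factor Nfe2l2 was higher by 0.28 ± 0.07 and separate between the lines. The peroxidase Gpx1 was lower with -0.42 and lost its call without any of 6 arrays. Of 16 glutathione S-transferase and aldehyde dehydrogenase genes only Mgst3 was called, higher by 0.38 (3.8% of all genes were higher). It lost the call without any of 8 arrays.

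Markers of other cell types were examined for the same 12 arrays. None of 9 fibroblast, 7 smooth muscle and pericyte, 8 tendon, 8 adipocyte, 10 macrophage, 4 lymphocyte, 4 mast cell, 6 Schwann cell or 13 liver markers passed the threshold, and their medians ran from -0.28 for lymphocytes to 0.05 for tendon. Several of these rested on young LCR exhausted replicate 1: without it the adipocyte median moved from -0.11 to 0.09, the fibroblast median from -0.21 to -0.10 and the macrophage median from -0.13 to -0.06. The tendon markers had a median of -0.81 at rest, where 1 of 8 was called lower (0.366% of all genes). All 8 had a positive interaction (median 0.90) that did not pass the threshold. The 10 macrophage markers had a mean level of 5.97 to 6.13 in HCR and 5.90 to 6.56 in LCR, and the 13 liver markers 3.97 to 4.78 and 4.01 to 5.29. In both lists the ranges overlapped. The highest macrophage value was that of young LCR exhausted replicate 1, and the other 5 LCR arrays lay between 5.90 and 6.27. No neutrophil marker had enough signal to be tested. The single erythroid gene tested, Hbb-b1, differed by 0.75 ± 0.25 (adjusted p = 0.0752). The part of these cell types in the gene differences was not tested further.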

How the data were processed

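The authors deposited log2 values, 1 per probe set and array. Expression Console is the software in the series' design text, whereas RMA and oligo, with no version, appear in the submitters' processing notes; the sources used here do not say which of them produced the table. Per the labels' protocols, RNA was extracted with Trizol, treated with DNase, cleaned on RNeasy columns and labelled from 400 ng. If RMA made the table, it brings the arrays' distributions close together, so a shift common to most genes cannot be read. The deposited distributions are close but not identical, with array medians from 4.47 to 4.59.

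Of 36685 probe sets, the 14824 naming exactly 1 gene were used; 829 name several and 21032 none. The brightest probe set stood for a gene (234 of 14557 genes have several). A gene was tested if 6 or more arrays exceeded 4.54 (the overall median value), which kept 9558 genes and dropped 4999. limma 3.58.1 in R 4.3.3 fitted a mean for each of the 8 groups over all 48 arrays (40 residual and 3.77 prior degrees of freedom), with two-sided tests and Benjamini-Hochberg adjustment over all 9558 genes in each of 5 comparisons: the lines after exhaustion in young and in old rats, the lines at rest in young rats, and 2 interactions. Errors of differences are SE. Python 3.11.15 and matplotlib 3.10.9 drew the figures.

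The members and the 40 gene lists were chosen with earlier results of these data known. Some genes stand in more than 1 list, such as Per1, Ddit4, Trim63 and Mt2A, so the counts of different lists are not independent. Named genes are the 15 furthest in each direction, up to 4 called members of a list (up to 2 others where none was called), and the 5 of smallest p per direction in each interaction; predicted and unnamed genes are left out. Genes named to complete a list's calls, and Arrdc3, were chosen after their values were seen. In simulated data with 200 of 9558 genes changed in this comparison, 67.2% of changes of 0.5, 94% of changes of 1 and 100% of changes of 2 (log2) were recovered, with 9 false calls among 183. The simulated noise was normal and independent between genes and arrays, without departing arrays, so the real data can do less well. Alternatives covered normalization, filter, probe sets, moderation, array weights, the arrays used and each array left out. Leaving out the pair of departing arrays was added after seeing the data.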

Additional observations from a re-analysis of the deposited data

Results flagged for a closer look

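In 12 of 224 sets of 6 arrays (named genes, each exhausted line) 1 array lay far from its group; chance gives about 1 in 20. In young HCR exhausted replicate 1, Gadd45g stood at 8.64 (others 8.91 to 9.01), Ndufb8 at 9.29 (9.45 to 9.53) and Usp18, a brake on interferon signalling, at 3.34 (4.27 to 4.63). In young LCR exhausted replicate 1, Aplnr stood at 5.97 (6.42 to 6.62), Ivd at 8.50 (8.88 to 9.07), Bckdhb at 8.67 (9.23 to 9.51) and Efna1 at 7.50 (7.79 to 7.93). Tekt1 stood at 3.92 in young HCR exhausted replicate 2 (3.39 to 3.5) and at 3.66 in young LCR exhausted replicate 6 (4.40 to 4.84). Herpud1 was at 8.57 in young LCR exhausted replicate 4 (8.72 to 8.78). The beta globin gene Hbb-b1 was at 7.88 in young LCR exhausted replicate 5 (6.38 to 6.90), and the albumin gene Alb, a liver product, at 8.84 in young HCR exhausted replicate 3 (5.45 to 6.33).

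In 17 of the 112 named genes the line difference after exhaustion differed from that at rest by the limma interaction test, against 0.356% of all genes tested. Its size (after minus at rest, log2) was 2.13 in Coq10b, 2.01 in Maff, 1.92 in Arrdc2, 1.68 in Adamts9, 1.65 in Stc1, 1.60 in Irs2, 1.54 in Junb, 1.46 in Hes1 and 1.26 in Tinagl1. It was 0.87 in Ppp1r15a, 0.84 in Il6r and 0.71 in Trim63. It was -1.40 in Aplnr, -1.10 in Lpar6, -1.01 in Trib2, -0.78 in Rnf125 and -0.66 in Efna1. Some of these genes were named for a small p in this same test, and others for large differences on the exhausted arrays it shares. The count of 17 therefore follows in part from how the genes were named.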

How the results depend on the processing

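The 485 calls between the lines after exhaustion were re-made under other settings, and between 306 of them (63.1%, with only the 12 arrays in the model) and 482 (99.4%, with the mean of a gene's probe sets) were called again in the same direction. Of the 81 named genes that were called, 59 were called in every setting run, and 20 lost the call without at least 1 of the 12 arrays. With limma array weights the counts after exhaustion were 584 higher and 208 lower, at rest 203 and 65, and in the interaction with exercise 45 and 25. At rest, 58 genes were higher with quantile normalization, 58 with no filter and 197 without the 3 arrays of highest lower quartile; with only the arrays of the comparison they were 54 higher and 22 lower. With no filter the interaction had 5 genes with a lower difference. In old exhausted rats the 12 arrays alone gave 194 higher and 37 lower. Quantile normalization changed the share of calls higher in HCR from 75.9% to 57.4% at rest, from 79.2% to 69.0% in old exhausted rats and from 74.8% to 66.5% in young exhausted rats, and array weights changed that of the interaction from 76.5% to 64.3%. Leaving out each array in turn gave 267 to 370 higher and 88 to 135 lower after exhaustion, 29 to 123 and 16 to 34 at rest, 10 to 36 and 3 to 17 in the interaction, and 215 to 360 and 57 to 78 in old exhausted rats; the totals at rest were 45, 68, 83 and 88 without young LCR rest replicates 6 and 5 and young HCR rest replicates 1 and 6. The interaction with age gave 0 genes in every setting run. The causes of these shifts were not tested, except that the model of 12 arrays has fewer arrays and no filter more genes tested. Of the named genes not called, 3 changed sign: Cpa3 from -0.07 to 0.03 and 0.08 without young LCR exhausted replicates 1 and 3 and to 0.01 without both departing arrays; Sox10 from -0.13 to 0.02 without young HCR exhausted replicate 1, to 0.02 without the 3 arrays and to 0.07 without both departing arrays; and Alb from -0.26 to 0.39 and 0.09 without young LCR exhausted replicates 3 and 6. Leaving out each of the 12 arrays gave -0.24 to 0.08 for Cpa3, -0.23 to 0.02 for Sox10 and -0.78 to 0.39 for Alb. No paired analysis was possible because replicate numbers follow the order of deposit and pair no animals. Small differences and dim genes should be read with the most caution. How far signal over background limits them was not tested.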

Other observations

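Other genes marked the lines in both states and were chosen after their values were seen. Cyp2j4, a cytochrome P450, was higher in HCR by 1.16 after exhaustion, 1.26 at rest and 1.66 in old exhausted rats, each past the limma threshold. Plat, the tissue plasminogen activator gene, was higher by 1.11, 0.52 and 1.16, Slc7a2, a cationic amino acid transporter gene, by 0.67, 0.74 and 0.71, and Il15, a cytokine gene of muscle, by 0.54, 0.49 and 0.55, all past the threshold. Prodh, of proline breakdown, was higher by 0.84 after exhaustion and 0.79 at rest, and Amy1, an amylase gene, by 1.33 and 1.89. Neither passed in old exhausted rats (0.33 and 1.0), and neither passed the test for a change of the line difference with age. Itga4, an integrin of leukocytes, was lower with -0.81, -0.69 and -0.60.

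Further genes passed the interaction test in young rats and were higher in HCR after the run. These include Map3k6, a stress kinase gene (1.29 after the run, 0.20 at rest), Plekhf1 (1.17 and 0.15), Tgif1, a repressor of TGF-beta signalling (1.13 and 0.15), Rasd1, a glucocorticoid-inducible Ras protein gene (0.99 and -0.20), and Bach1, a haem-sensing repressor (0.84 and -0.07). Rhobtb1 was higher by 0.91 after the run and stood at -0.58 at rest. A pair of genes passed the interaction without passing the threshold after the run. Gvinp1 differed by -0.04 after the run and 1.13 at rest, and Tbl1xr1, a corepressor subunit, by -0.23 and 0.27.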
